A study of Mus musculus with 4 samples.

Results

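The receptors through which bile acids and oxysterols are sensed were examined in the RNA-Seq of DCA-treated ILC2s. They are 10 of the 27179 genes in the table, taken by gene symbol as a fixed list, and all 10 have a row. Gpbar1 and S1pr2 encode G protein-coupled receptors of the cell surface. Nr1h4, Vdr, Nr1i2, Nr1i3, Nr1h2, Nr1h3, Rxra, and Rxrb encode nuclear receptors. ILC2s, lymphocytes that lack antigen receptors and secrete type 2 cytokines, came from large intestine of WT C57BL/6 mice by cell sorting and are labeled as colon. The methods give the age of C57BL/6J mice as 6 to 8 weeks in one place and that of mice in general as 6 to 14 weeks in another, and they describe the C57BL/6J mice both as male and female and as male alone. Every culture was first kept for 5 days with the cytokines IL-33, IL-25, IL-7, and IL-2 at 10 ng/mL each. DCA (deoxycholic acid, a secondary bile acid made by gut bacteria) at 100 μM was then added to the treated cultures. The control libraries are labeled Ctrl and are called vehicle here, and the RNA-Seq methods describe these cultures only as without DCA. The exposure lasted 24 hours by the methods of the study and 16 hours by the deposited design text. There were 2 vehicle and 2 DCA libraries. The sources used here do not state whether these came from separate mice or cultures, so the spread between them may be technical.

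Bile acids signal through TGR5, the product of Gpbar1, which raises cAMP, and through FXR, the product of Nr1h4, which controls bile acid synthesis and transport in liver and ileum. The vitamin D receptor (Vdr), PXR (Nr1i2), and CAR (Nr1i3) also respond to some bile acids, and conjugated bile acids can act on S1PR2, a receptor for sphingosine 1-phosphate. LXRα (Nr1h3) and LXRβ (Nr1h2) bind oxysterols and switch on cholesterol export genes. All of these nuclear receptors pair with a retinoid X receptor, of which Rxra and Rxrb are the most widely expressed forms. The question put to these libraries was which of the receptors had RNA in cultured ILC2s, and whether DCA changed it.

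The libraries held 35838342 and 26564059 counts under vehicle and 32102232 and 244165712 counts under DCA, so DCA replicate 2 was far deeper than the rest. Levels are given as CPM (counts per 1000000, scaled with edgeR's TMM method). A gene at 0 counts was bounded by 3 counts. This limit lay at 0.0819 CPM for the first and 0.114 CPM for the second vehicle library, and at 0.0928 and 0.0125 CPM for the DCA libraries in the same order. Such bounds cover counting error only, and a table that counted each mate on its own would need larger ones. ILC2 genes were abundant, with Gata3 between 599 and 838 CPM, although Thy1, a surface marker of mouse ILC2s, had 2 and 0 counts under vehicle against 137 and 6 under DCA. All 10 ILC2 markers were tested by edgeR's quasi-likelihood method, and 0 passed at an adjusted p of 0.05. Under DCA, 4 had a higher and 6 a lower fitted value. Il5, the most abundant of them, was at 8846 and 7707 CPM under vehicle against 9952 and 12358 CPM under DCA (unadjusted p = 0.0598). Il1rl1, the IL-33 receptor chain, was at 831 and 875 CPM under vehicle against 598 and 534 CPM under DCA (unadjusted p = 0.0235). Klrg1 was at 687 and 677 CPM under vehicle against 463 and 357 CPM under DCA (unadjusted p = 0.0156), and Il7r at 373 and 349.6 CPM against 582 and 462 CPM (unadjusted p = 0.0515). Of the 10 macrophage and dendritic cell markers, 6 were at 0 counts in every library, Csf1r, C1qa, and Cd14 among them. Of the 9 epithelial markers, 2 were at 0 counts in every library, and the list summed to between 8.27 and 14.3 CPM. T cell markers summed to between 15.9 and 34.6 CPM. Cd4 and Cd8a were at 0, whereas Cd3g was between 10.5 and 25.5 CPM and Trac between 4.66 and 7.97 CPM. B cell markers summed to between 37.7 and 55.0 CPM, nearly all of it Cd79b. Markers of hepatocytes and fibroblasts summed to between 0.104 and 2.999 CPM.

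The receptors fell into 3 sets by their levels. Nr1h2, Rxrb, and S1pr2 had counts in all 4 libraries. Vdr, Rxra, Gpbar1, and Nr1i2 had counts in some libraries and 0 in others. Nr1h4, Nr1i3, and Nr1h3 were at 0 counts in every library, as were 34.9% of all rows of the table.

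**Figure D1:**
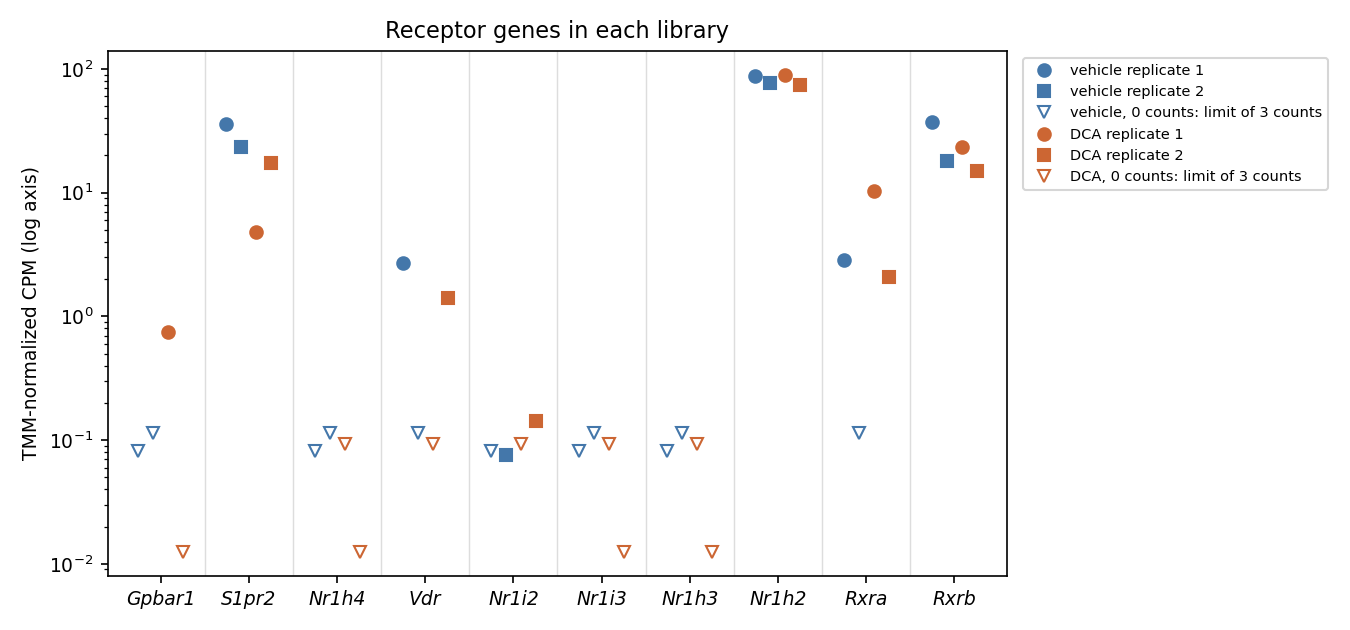
TMM-normalized CPM (log axis) of the 10 receptor genes in each of the 4 libraries, with open triangles at the limit of 3 counts where a library had 0 counts. Nr1h2 lies between 73.9 and 89.9 CPM in all 4 libraries, and Nr1h4, Nr1i3, and Nr1h3 show open triangles alone.

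The G protein-coupled bile acid receptor was found in 1 library. Gpbar1 (Entrez gene 227289, chromosome 1, 74278600 to 74279589 on GRCm38) had 0 and 0 counts under vehicle and 24 and 0 counts under DCA, or 0.742 CPM in DCA replicate 1. The exact 95% Poisson interval of the 24 counts runs from 15.4 to 35.7. DCA replicate 2, the deepest library, was at 0 counts, where the rate of DCA replicate 1 would give 178 counts. The level of DCA replicate 1 was 59.4-fold above the limit of DCA replicate 2, a library of the same treatment. The DCA mean was 3.78-fold above the mean vehicle limit, and it rests on DCA replicate 1. Neither ratio includes the counting error of the 24 counts. Transcripts of other tissues, picked out after their values were seen, had counts in the same library. Alb, the serum albumin gene of hepatocytes, had 4 and 19 counts under vehicle and 79 and 0 under DCA, and Muc2, the mucin of goblet cells, had 0 and 20 under vehicle and 93 and 0 under DCA. Vil1, an epithelial cytoskeletal gene, had 0 and 1 counts under vehicle against 16 and 0 under DCA, but several other genes of these marker lists did not stand out there. Epcam, the most abundant epithelial marker, was lowest in DCA replicate 1, at 3.99 CPM against 7.61, 6.94, and 7.87 CPM in vehicle replicates 1 and 2 and DCA replicate 2. Apoa1, another hepatocyte gene, had 16 counts in vehicle replicate 1 and 15 in DCA replicate 1. The part of these transcripts in the Gpbar1 counts was not tested.

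FXR RNA was not detected. Nr1h4 (Entrez gene 20186, chromosome 10, 89454234 to 89533645) had 0 counts in each of the 4 libraries, which in DCA replicate 2 allows up to 0.0125 CPM. The exons of Gpbar1 and Nr1h4 overlap no other gene in the GENCODE annotation. Of 6 textbook FXR targets, 4 were also at 0 in every library, including Nr0b2, which encodes the repressor SHP. Abcb11 and Fabp6 had 3 and 4 counts, each in 1 DCA library.

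The vitamin D and xenobiotic receptors were low or at 0. Vdr (Entrez gene 22337, chromosome 15, 97854427 to 97908296) had 99 and 0 counts under vehicle and 0 and 337 counts under DCA. At the rate of vehicle replicate 1, vehicle replicate 2 would have held 70.9 counts, and at the rate of DCA replicate 2, DCA replicate 1 would have held 45.4. Both were at 0, so the libraries of each treatment differed from each other by more than counting error. Nr1i2 (Entrez gene 18171, chromosome 16, 38248349 to 38294849) had 0 and 2 counts under vehicle and 0 and 34 counts under DCA. The level of DCA replicate 2, 0.142 CPM, would give 5.19 and 3.72 counts in the vehicle libraries and 4.58 in DCA replicate 1. That level is above the limit of 3 counts in each of these libraries, and the other DCA library was at 0 counts. Nr1i3 (Entrez gene 12355, chromosome 1, 171213934 to 171218845) had 0 counts in every library. In the annotation, 74.9% of its exonic bases also lie in Tomm40l, a gene on the opposite strand, and the strand setting of the counting is not given in the sources used here. None of the 4 VDR targets reached a mean of 1 CPM, and Cyp24a1, the vitamin D 24-hydroxylase, was at 0 in every library. S100g had 17 counts in DCA replicate 1 and 2 or fewer in the other libraries, and Cyp27b1 had 2 counts in vehicle replicate 2. Of 6 PXR and CAR targets, Abcb1a, a drug efflux pump that many lymphocytes express, passed the filter. It was at 10.2 and 3.35 CPM under vehicle and at 7.82 and 10.1 CPM under DCA, and its log2 fold change was 0.40 (unadjusted p = 0.682, adjusted p = 0.998, edgeR's quasi-likelihood test). Cyp3a11 had 22 counts in vehicle replicate 1 and 0 in the others.

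S1pr2 was lower with DCA by a margin that did not pass the test. S1pr2 (Entrez gene 14739, chromosome 9, 20965952 to 20976793) had 1319 and 612 counts under vehicle and 154 and 4142 counts under DCA, or 36.0 and 23.3 CPM against 4.76 and 17.3 CPM. Both DCA libraries were below both vehicle libraries, with DCA replicate 1 far below the other 3. The means were 29.7 ± 8.96 CPM (SD, n = 2) under vehicle and 11.0 ± 8.84 CPM (SD, n = 2) under DCA. On the log2 scale S1pr2 differed by -1.43 (standard error 0.89). The edgeR quasi-likelihood test gave an unadjusted p of 0.0969, which became 0.998 after Benjamini-Hochberg adjustment. The value was -0.78 without DCA replicate 1 and -2.64 (unadjusted p = 0.0294) without DCA replicate 2, by the same edgeR test. Cd68, a lysosomal gene from the macrophage marker list, was also lower in both DCA libraries, at 24.2 and 23.9 CPM under vehicle and 7.30 and 10.2 CPM under DCA. That list summed to 24.6 and 23.9 CPM under vehicle and 7.30 and 10.2 CPM under DCA, nearly all of it Cd68, and its part in the S1pr2 values was not tested. In bulk libraries, fewer cells with S1pr2 and less S1pr2 RNA per cell cannot be told apart.

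Within the LXR pair, the LXRβ gene carried all the counts. Nr1h2 (Entrez gene 22260, chromosome 7, 44549616 to 44553968) had 3200 and 2010 counts under vehicle and 2906 and 17733 counts under DCA, or 87.3 and 76.6 CPM against 89.9 and 73.9 CPM. The treatments overlap, and the highest and the lowest library are both DCA libraries. Means were 82.0 ± 7.57 CPM (SD, n = 2) under vehicle and 81.9 ± 11.3 CPM (SD, n = 2) under DCA. The log2 fold change was -0.0019 (standard error 0.17), with an adjusted p of 0.999 in edgeR's quasi-likelihood test. The 95% interval of the difference in log2(CPM + 1) from limma ran from -0.67 to 0.66, so differences in that range were not excluded. This interval is not a limit above which a change would have been called. Nr1h3 (Entrez gene 22259, chromosome 2, 91184061 to 91202829) had 0 counts in every library, and 1.35% of its exonic bases overlap another gene. Per kb of its longest transcript, Nr1h2 was at least 1043-fold and 655-fold above Nr1h3 in the vehicle libraries and at least 947-fold and 5781-fold above it in the DCA libraries.

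Both retinoid X receptor genes of the list were present, with Rxrb above Rxra. Rxrb (Entrez gene 20182, chromosome 17, 34031812 to 34038403) had 1351 and 473 counts under vehicle and 761 and 3591 counts under DCA, or 36.9 and 18.0 CPM against 23.5 and 15.0 CPM. Vehicle replicate 1 was the highest and the other 3 libraries lay close together, so the treatments overlapped. Its log2 fold change was -0.51 (standard error 0.59, unadjusted p = 0.393, adjusted p = 0.998, edgeR's quasi-likelihood test), and without vehicle replicate 1 it was 0.071. Rxra (Entrez gene 20181, chromosome 2, 27676445 to 27763319) had 104 and 0 counts under vehicle and 331 and 496 counts under DCA, or 2.84 and 0 CPM against 10.2 and 2.07 CPM. DCA replicate 1 was the highest, and DCA replicate 2 was below vehicle replicate 1. The log2 fold change of Rxra was 2.11 (unadjusted p = 0.394, adjusted p = 0.998 in the same edgeR test), and it was 0.56 without DCA replicate 1. In log2(CPM + 1) the difference was 1.58 (standard error 1.35). Leaving out vehicle replicate 1 puts the whole vehicle group at 0 counts, and the edgeR value of 12.3 (unadjusted p = 0.00591) is no measure of size. Per kb, Rxrb was 24.3-fold above Rxra in vehicle replicate 1, at least 294-fold in vehicle replicate 2, and 4.29-fold and 13.5-fold in DCA replicates 1 and 2. With the median transcript length in place of the longest, these ratios were 10.2, at least 123.5, 1.80, and 5.67.

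Zeros in one library beside clear counts in another, as in Vdr and Rxra, were frequent at this level. Of the 2083 tested genes with a mean between 1 and 5 CPM, 46.5% were at 0 counts in at least 1 library, against 9.90% of all 11179 genes tested. Vdr, at a mean of 1.03 CPM, was just inside the filter of 1 CPM, and Gpbar1, at 0.186 CPM, was the nearest receptor outside it.

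Expressed in CPM per kb of the longest transcript, so that genes can be compared, the order under vehicle was Nr1h2 at 41.0 ± 3.79, Rxrb at 10.5 ± 5.07, and S1pr2 at 4.64 ± 1.40 (SD, n = 2 for each). Their libraries did not overlap. Vdr at 0.309 ± 0.437 and Rxra at 0.289 ± 0.409 CPM per kb followed and did not differ beyond their spread. With the median transcript length Rxra, at 0.713 CPM per kb, came before Vdr. Nr1i2, at 0.0149 ± 0.0211 CPM per kb, was the last of the vehicle order with any count. With DCA the order was Nr1h2 at 41.0 ± 5.64, Rxrb at 7.33 ± 2.31, S1pr2 at 1.72 ± 1.38, and Rxra at 1.25 ± 1.18 CPM per kb. S1pr2 and Rxra overlapped there, and with the median transcript length Rxra, at 3.09 CPM per kb, came before S1pr2. Gpbar1 at 0.345 ± 0.488, Vdr at 0.161 ± 0.227, and Nr1i2 at 0.0278 ± 0.0392 CPM per kb came last, all within their spread.

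**Figure D2:**
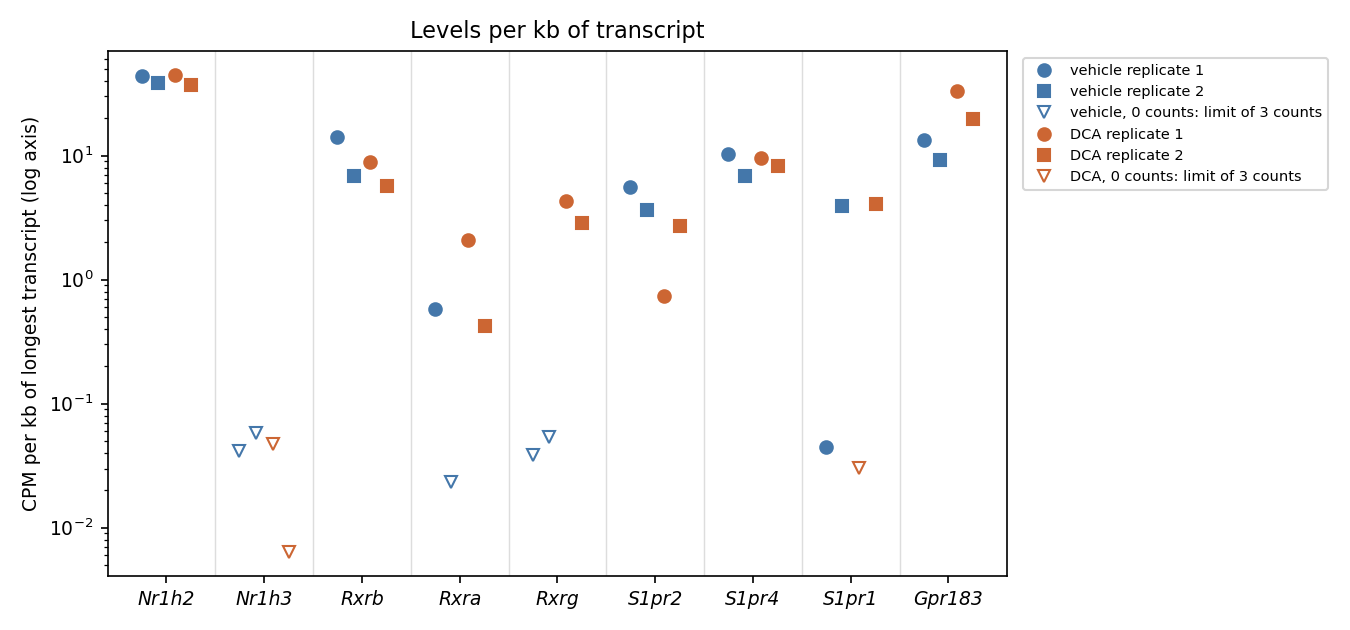
CPM per kb of the longest transcript (log axis) in each library, for the LXR pair, the 3 retinoid X receptors, S1pr2, S1pr4, S1pr1, and Gpr183, with open triangles at the limit of 3 counts where a library had 0 counts. Nr1h2 lies between 37.0 and 45.0, and Rxrg has counts in the DCA libraries and none in the vehicle libraries.

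Of the 10 receptors, 5 passed the filter of a mean of at least 1 CPM and were tested, namely Nr1h2, Rxrb, S1pr2, Rxra, and Vdr. With edgeR's quasi-likelihood test, 0 of the 5 had an adjusted p under 0.05, and 0 of the 11179 genes tested did (0%). At an unadjusted p under 0.05 there were 0 of the 5 receptors and 4.28% of all genes tested. Both DCA libraries were below both vehicle libraries for S1pr2 and for 14.5% of the genes tested, and above them for 0 of the 5 receptors and 18.9% of the genes tested. With 2 libraries against 2, an exact permutation test cannot give a two-sided p below 0.333. The intervals of the differences were wide. In log2(CPM + 1) from limma, they ran from -3.12 to 0.025 for S1pr2, from -2.71 to 2.09 for Vdr, from -0.84 to 4.01 for Rxra, and from -1.70 to 0.82 for Rxrb. The log2 fold change of Vdr was -0.93 (unadjusted p = 0.781, adjusted p = 0.998, edgeR's quasi-likelihood test), and its sign turned without vehicle replicate 1 and without DCA replicate 1. In log2(CPM + 1) the difference was -0.31 (standard error 1.14).

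**Figure D3:**
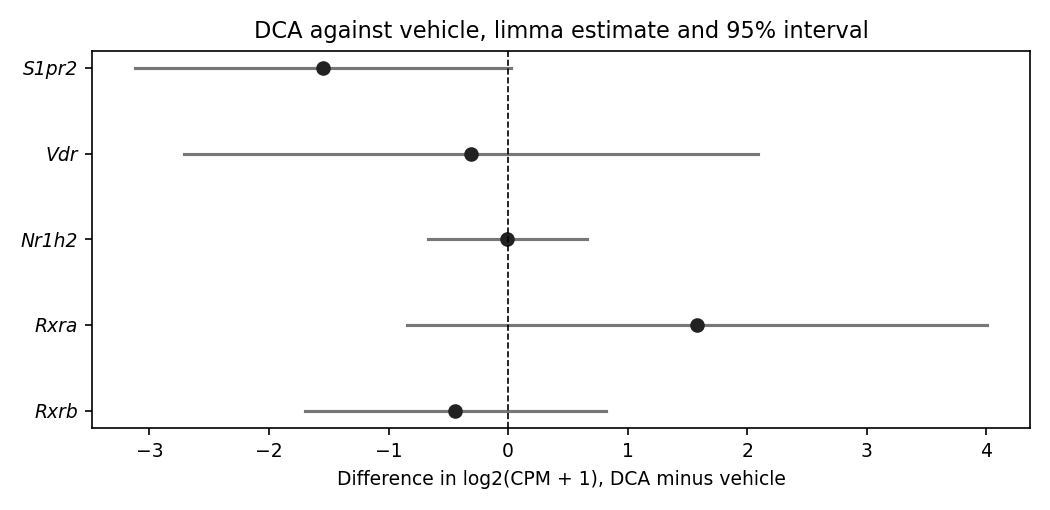
Difference between DCA and vehicle in log2(CPM + 1) for the 5 tested receptors, with points at the limma estimate and bars for its 95% interval. Each interval includes 0, and that of Nr1h2, from -0.67 to 0.66, is the narrowest of the 5.

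The receptors that passed the filter and those that did not also had different numbers of CpG pairs before their start sites. CpG pairs were counted in the 250 bases before the transcript start that the RefSeq promoter table (GRCm38.p6) lists for each gene, or the most upstream one listed. The gene spans given above run to the outermost transcript, so a listed start can lie inside its span. It lies 26987 bases inside for Nr1h4, 7713 for Nr1h3, 756 for Rxra, and between 0 and 36 for the other 7 receptors. For Nr1h4, Nr1h3, and Rxra the counts therefore describe an inner start, and the DNA before the outermost start was not analysed here. There were 13 pairs for Nr1h2, 14 for S1pr2, 11 for Vdr, 40 for Rxra, and 31 for Rxrb, against 7 for Nr1h3, 5 for Nr1h4, 2 for Nr1i2, 2 for Nr1i3, and 1 for Gpbar1. The median was 16 over the 8798 tested genes with a promoter sequence and 2 over the 5542 genes at 0 counts in every library that had one. These counts describe the sequences and were not tested.

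The 250 bases before the listed start are shown for the LXR pair, the more abundant retinoid X receptor, and the bile acid receptors TGR5 and FXR. These genes include receptors that passed the filter and receptors that did not. The sequences read 5′ to 3′ on the strand of the gene, from RefSeq on GRCm38.p6, with CpG pairs in capitals. Nr1h2 is at chr7:44553966-44554215 on the minus strand, Nr1h3 at chr2:91195117-91195366 on the minus strand, Rxrb at chr17:34031562-34031811 on the plus strand, Gpbar1 at chr1:74278350-74278599 on the plus strand, and Nr1h4 at chr10:89506659-89506908 on the minus strand. The stretches of Nr1h4 and Nr1h3 lie within the gene spans.
Nr1h2: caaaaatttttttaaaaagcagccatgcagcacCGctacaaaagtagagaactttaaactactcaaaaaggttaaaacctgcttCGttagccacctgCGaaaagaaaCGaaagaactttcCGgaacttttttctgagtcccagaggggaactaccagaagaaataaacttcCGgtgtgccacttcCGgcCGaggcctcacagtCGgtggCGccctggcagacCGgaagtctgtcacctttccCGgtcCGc
Nr1h3: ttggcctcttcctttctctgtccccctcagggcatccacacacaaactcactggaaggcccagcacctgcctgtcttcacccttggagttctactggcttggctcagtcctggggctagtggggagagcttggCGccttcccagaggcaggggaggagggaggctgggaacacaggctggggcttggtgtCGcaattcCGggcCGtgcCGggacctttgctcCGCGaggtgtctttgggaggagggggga
Rxrb: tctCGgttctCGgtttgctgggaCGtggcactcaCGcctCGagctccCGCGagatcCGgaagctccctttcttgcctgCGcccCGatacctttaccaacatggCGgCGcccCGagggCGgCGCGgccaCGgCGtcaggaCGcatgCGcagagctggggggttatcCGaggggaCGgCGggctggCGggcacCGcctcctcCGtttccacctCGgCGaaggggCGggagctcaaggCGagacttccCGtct
Gpbar1: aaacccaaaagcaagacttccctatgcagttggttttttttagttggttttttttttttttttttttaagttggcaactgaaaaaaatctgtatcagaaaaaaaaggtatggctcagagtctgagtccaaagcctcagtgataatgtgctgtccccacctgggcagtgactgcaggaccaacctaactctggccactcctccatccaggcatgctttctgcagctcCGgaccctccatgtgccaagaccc
Nr1h4: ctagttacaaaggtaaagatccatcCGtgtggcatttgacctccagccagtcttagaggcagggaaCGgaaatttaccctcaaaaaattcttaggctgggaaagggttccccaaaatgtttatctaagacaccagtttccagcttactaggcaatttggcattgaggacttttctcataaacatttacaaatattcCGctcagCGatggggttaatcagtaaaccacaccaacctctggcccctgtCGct

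In the 125 bases nearest the start lie 15 of the 31 CpG pairs of Rxrb, 8 of the 13 of Nr1h2, all 7 of Nr1h3, 3 of the 5 of Nr1h4, and the 1 pair of Gpbar1. The GC content was 48.4% for Nr1h2 and 63.2% for Nr1h3, so the LXR pair differs in CpG pairs and GC content in opposite directions.

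**Figure D4:**
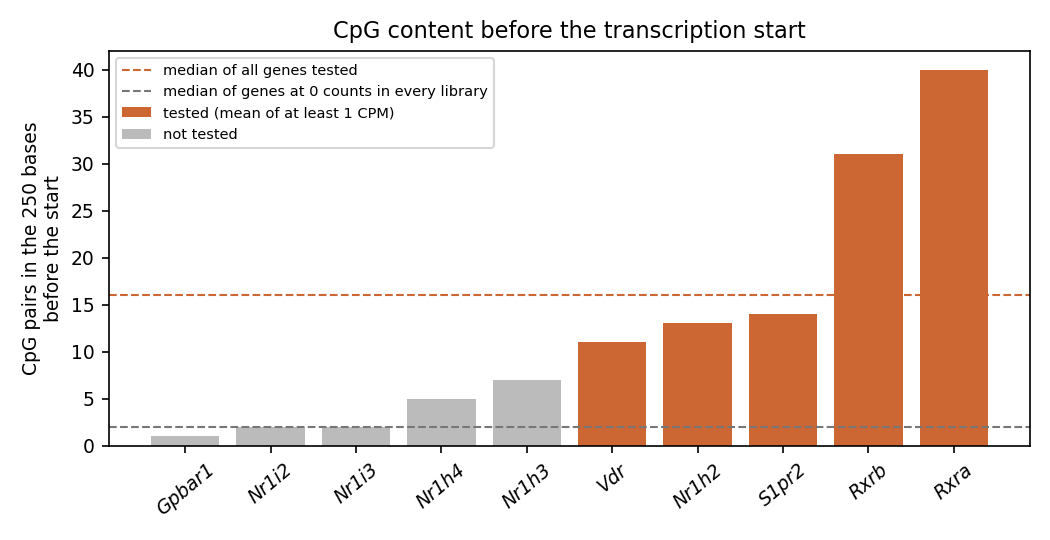
Number of CpG pairs in the 250 bases before the listed start of each receptor gene, in orange for the 5 genes tested and in gray for the others, with dashed lines at the medians of all tested genes (16) and of genes at 0 counts in every library (2). The 5 tested receptors have between 11 and 40 pairs and the other 5 have between 1 and 7.

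The genes that work with these receptors were read from lists. In the list of other bile acid and oxysterol sensing receptors, 5 of 10 genes were tested and 0 passed an adjusted p of 0.05. Gpr183, the surface receptor for 7α,25-dihydroxycholesterol, was at 36.6 and 25.002 CPM under vehicle and at 90.7 and 53.2 CPM under DCA, both DCA libraries above both vehicle libraries. Its log2 fold change was 1.22 (unadjusted p = 0.0242, adjusted p = 0.998, edgeR's quasi-likelihood test). Ch25h, which makes the 25-hydroxycholesterol precursor of that ligand, was at 0 counts in every library. Nr3c1, the glucocorticoid receptor, was the most abundant gene of this list. It was at 374 and 260 CPM under vehicle and at 194 and 251 CPM under DCA, and its log2 fold change was -0.51 (unadjusted p = 0.111, adjusted p = 0.998).

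Rxrg, the third retinoid X receptor, had 0 and 0 counts under vehicle and 295 and 1438 counts under DCA, or 9.12 and 5.99 CPM. The DCA mean of Rxrg was 77.0-fold above the mean of the vehicle limits of 3 counts. DCA replicate 2, the lower DCA library, was at least 52.4-fold above the higher limit, that of vehicle replicate 2. Per kb, Rxrb was at least 362-fold and 127-fold above Rxrg in the vehicle libraries and 2.07-fold and 2.01-fold above it in the DCA libraries. Rarb, a retinoic acid receptor that pairs with RXR, had 100 and 72 counts under vehicle and no count under DCA. Vehicle replicate 1, the lower vehicle library, was at least 29.4-fold above the higher DCA limit, that of DCA replicate 1. The unadjusted p was 0.00426 for Rxrg and 0.0186 for Rarb, and edgeR's quasi-likelihood test gave both an adjusted p of 0.998. Each gene reached the filter of 1 CPM only through the treatment in which it had counts. The p-values therefore rest on the same values that let these genes in. With DESeq2 the adjusted p was 1.55e-05 for Rxrg and 0.00233 for Rarb, and no other alternative put either under 0.05. Without a filter it was 0.0764 and 0.617 in edgeR's test. Of the genes tested, 1.37% had both vehicle libraries at or under 3 counts and both DCA libraries above 3, and 0.116% had the reverse. DCA replicate 2 was far deeper and passes 3 counts more easily, so these shares cannot be set against each other. In this list of 11 RXR partners, 6 were tested and edgeR's test called 0 at an adjusted p of 0.05. The median log2 fold change, 0.39 also with Rxrg and Rarb at their bounds, came from 3 higher and 3 lower fitted values, against a median of 0.013 over all genes tested. Pparg, the most abundant partner and a fatty acid sensor of ILC2s, was at 112 and 149.97 CPM under vehicle and 94.99 and 72.3 CPM under DCA. Rara was at 27.6 and 16.2 CPM under vehicle and at 34.7 and 44.3 CPM under DCA.

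Coactivators and corepressors hold nuclear receptors on or off. Of 17 such genes 16 were tested, and 0 had an adjusted or an unadjusted p under 0.05. Their median log2 fold change was -0.15, with 6 higher and 10 lower. Ncor1, the corepressor of unliganded LXR, was at 163 and 180 CPM under vehicle and 145 and 165 CPM under DCA. Ncoa3 was the most abundant, at 325 and 185 CPM under vehicle and 229.1 and 228.8 CPM under DCA. Tbl1xr1, an exchange factor of the corepressor complex, had a log2 fold change of 0.77 (unadjusted p = 0.0501), and Hdac3, its deacetylase, one of -0.32 (unadjusted p = 0.280), with an adjusted p of 0.998 for both in edgeR's quasi-likelihood test.

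Of 13 LXR targets, 8 were tested, and 7 had a positive fitted change, with a median log2 fold change of 0.20. Over all genes tested, 5709 of 11179 had a positive fitted change, at a median of 0.013. Mylip, among the 7, was at 0.085 in edgeR and at -0.088 in limma's difference of log2(CPM + 1). In edgeR's test, the unadjusted p was above 0.05 for all 8. Abcg1, a cholesterol exporter, was at 74.4 and 55.5 CPM under vehicle and 93.2 and 107 CPM under DCA, both DCA libraries above both vehicle libraries (log2 fold change 0.62, unadjusted p = 0.0765, adjusted p = 0.998). Abca1, the other main cholesterol exporter, had 69 and 0 counts under vehicle and 183 and 341 counts under DCA, in the same pattern of zeros as Rxra. Srebf1, the SREBP-1 gene, was at 82.4 and 47.6 CPM under vehicle and 76.7 and 63.4 CPM under DCA. Lpcat3, a phospholipid-remodeling enzyme, and Arl4c were the most abundant targets, between 184 and 229 CPM and between 75.5 and 161 CPM. Scd2, a fatty acid desaturase, had a negative log2 fold change of -0.26 (unadjusted p = 0.596), which rests on DCA replicate 2, since it was 0.22 without that library.

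Enzymes that make oxysterols and bile acids were mostly below 1 CPM. Of 13 genes 4 were at 0 in every library, Ch25h and Cyp7a1 among them, and 3 were tested. Hsd3b7, a sterol dehydrogenase of bile acid synthesis, had 763 and 12 counts under vehicle and 1357 and 3445 counts under DCA. Its log2 fold change was 1.40 (unadjusted p = 0.366, adjusted p = 0.998, edgeR) with all libraries, 0.43 without vehicle replicate 2, 0.45 without DCA replicate 1, and 5.92 without vehicle replicate 1. Amacr, a peroxisomal racemase, was between 10.6 and 14.8 CPM, and Sult2b1, which adds sulfate to oxysterols, had a log2 fold change of -0.050 (unadjusted p = 0.972). Of 9 bile acid transporters 3 were at 0 in every library, the ileal carrier Slc10a2 among them, and 5 were tested, all with a negative fitted change and a median of -0.32. Over all genes tested, 5470 of 11179 had a negative fitted change. The treatments overlapped for all 5 transporters tested. For Abcc4, the efflux pump with the smallest p, the log2 fold change was -0.28 (unadjusted p = 0.602) with all libraries and 0.051 without vehicle replicate 1. Abcc1 was at 49.9 and 36.1 CPM under vehicle and 33.9 and 43.1 CPM under DCA, and Slco3a1 between 13.9 and 35.7 CPM.

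Downstream of TGR5, 10 of 12 genes of the cAMP arm were tested, with a median log2 fold change of 0.30 and 0 genes under an adjusted p of 0.05. Gnas, the stimulatory G protein, was at 542 and 514 CPM under vehicle and 709 and 598 CPM under DCA, and Prkar1a, a regulatory subunit of protein kinase A, was between 829 and 967 CPM. Prkacb, a catalytic subunit of that kinase, was at 75.4 and 86.4 CPM under vehicle and at 46.0 and 45.5 CPM under DCA (log2 fold change -0.82, unadjusted p = 0.0295, adjusted p = 0.998, edgeR's quasi-likelihood test). Pde4d, which degrades cAMP, was at 11.9 and 11.5 CPM under vehicle and at 32.1 and 17.5 CPM under DCA (log2 fold change 1.09, unadjusted p = 0.102, adjusted p = 0.998).

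Among genes of sphingosine 1-phosphate signaling, S1pr4 was at similar levels in all 4 libraries, 24.5 and 16.3 CPM under vehicle and 22.8 and 19.7 CPM under DCA. Per kb, S1pr4 exceeded S1pr2 by 1.82-fold and 1.87-fold under vehicle and by 12.8-fold and 3.06-fold under DCA. S1pr1, the receptor for egress from tissues, had 5 and 315 counts under vehicle and 0 and 2954 counts under DCA, so the spread within each treatment exceeded the difference between them. S1pr3 was at 0 in every library, and S1pr5 had 36 counts in DCA replicate 2 and 0 elsewhere. Of the 14 genes in this list, 9 were tested, and edgeR's test gave 0 of them an unadjusted p under 0.05, at a median log2 fold change of 0.069. Sgpl1, which degrades sphingosine 1-phosphate, had a log2 fold change of -0.63 (unadjusted p = 0.207), and Gnai2, a G protein of these receptors, one of 0.22 (unadjusted p = 0.375). Rhoa, the GTPase downstream of S1PR2, was between 407 and 481 CPM.

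**Figure D5:**
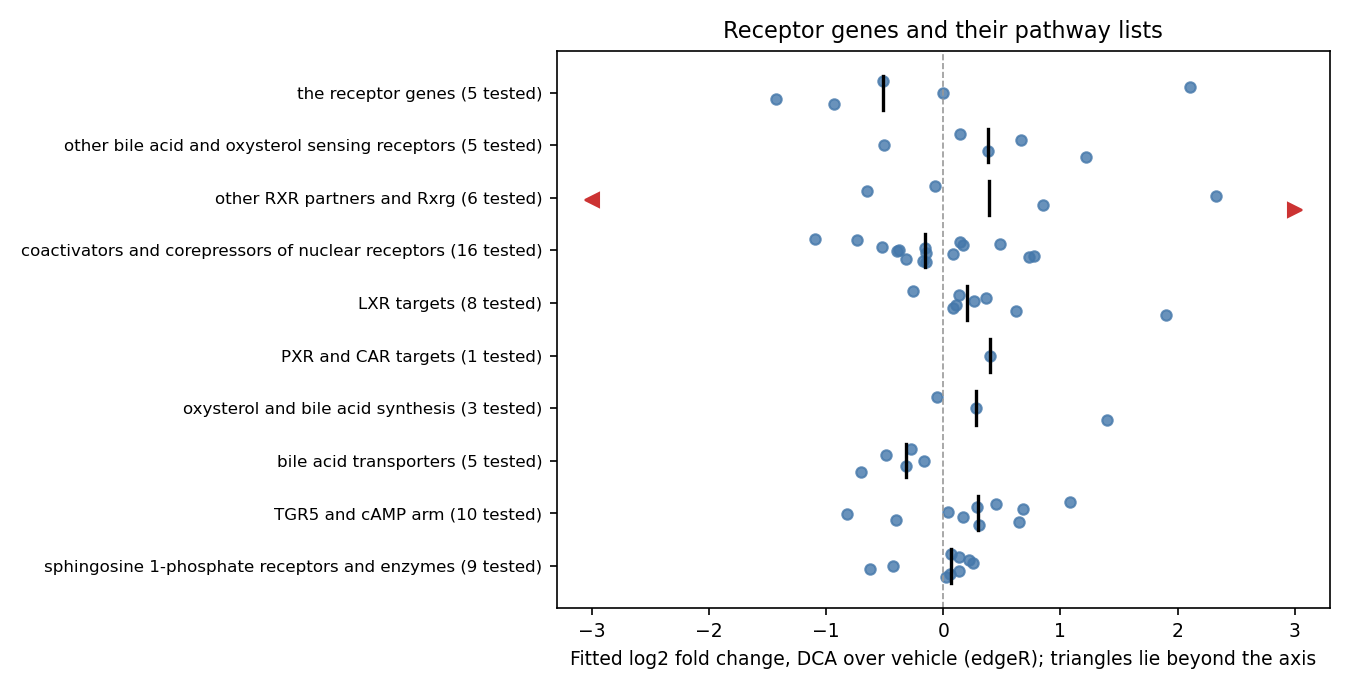
Fitted log2 fold change of DCA over vehicle (edgeR) for each tested gene of the receptor list and of the lists around it, with black bars at the list medians and red triangles for the 2 genes beyond the axis, Rxrg to the right and Rarb to the left. The receptor list has a median of -0.51 over 5 genes, with Rxra at 2.11 and S1pr2 at -1.43 as its ends, and this median turned to 0.073 without vehicle replicate 1.

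The median log2 fold change of the 5 tested receptors was -0.51, with 1 higher and 4 lower, against 0.013 over all genes tested. This median is the value of Rxrb, and without vehicle replicate 1 it was 0.073, with 4 higher and 1 lower. Genes had to reach a mean of 1 CPM to enter this median, and the other 5 receptors did not.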

How the data were processed

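RNA-Seq of 2 vehicle and 2 DCA libraries was analyzed from the deposited table. Full-length cDNA came from a SMART-Seq HT kit. Read pairs were filtered (Cutadapt 1.9) and mapped to the mm10 build (HISAT2 2.2.1) by the authors. The values the authors deposited are whole-number counts per gene, although the table is named for FPKM, and the counting tool, annotation, and strand setting are not given in the sources used here. After TMM scaling, a two-sided quasi-likelihood test in edgeR 4.0.16 (R 4.3.3) contrasted the treatments over 11179 genes whose mean reached 1 CPM, and p-values were adjusted by Benjamini-Hochberg. Intervals came from limma 3.58.1 on log2(CPM + 1), and DESeq2 1.42.0, the tool named by the study, was an alternative. Standard errors reflect how log2(CPM + 1) varied within treatments, also where they stand beside a log2 fold change from edgeR, and do not come from the edgeR fit. Rows without a symbol held between 0.137% and 0.173% of counts and stayed in under their identifiers. Transcript lengths are those of GENCODE M21 transcripts matched to RefSeq, and gene spans and promoters come from separate RefSeq tables on GRCm38.p6, the assembly of mm10, whose outermost starts differ for some genes. The scripts were tested on simulated counts in which 200 of 11179 genes changed by a log2 of 2. With the spread estimated from these libraries, 94 genes were called, of which 81 were truly changed, so most of the 200 were missed. With a small spread, 214 were called, and these included all 200. Alternatives were other filters, scalings, pseudocounts, and tools, a replicate block, thinning of the deepest library, and leaving out each library.

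The receptors and all lists were chosen with earlier results of these data known. Named were all receptors, and in each pathway list the gene with the smallest p in each direction and the 2 with the highest mean CPM. Also named were Gpr183, Ch25h, Nr0b2, Cyp24a1, Abca1, Abcg1, Srebf1, Rxrg, S1pr1, S1pr4, Nr3c1, Gnas, and Ncor1. For the cell type marker lists this rule was not kept in full, and values of Krt18, Cd79a, Adgre1, and Col1a2, which it selects, are not given. Further genes were named after their values were seen. Other experiments of the study were not analysed here.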

Additional observations from a re-analysis of the deposited data

How the results depend on the processing

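No receptor had an adjusted p under 0.05 with all libraries or with any 1 left out. Over all genes, edgeR's quasi-likelihood test called 0 (479 at an unadjusted p under 0.05). Dropping the filter gave 36 calls, DESeq2 gave 253, and leaving out 1 library gave between 0 and 41, highest without vehicle replicate 1. Of the genes in the lists around the receptors, 0 were called, and DESeq2 called 2, Rxrg and Rarb. The cause was not tested. S1pr2 had an unadjusted p of 0.0479 with DESeq2 and 0.0362 without a filter. For the receptors and named genes, none of the 205 log2 fold changes from alternatives that keep all libraries changed sign, and 10 of 84 did with 1 library left out. The ranges that include a change of sign were -8.43 to 9.15 for Vdr, -0.15 to 0.13 for Nr1h2, -0.94 to 0.071 for Rxrb, -1.28 to 0.61 for Sult2b1, -0.56 to 0.051 for Abcc4, -0.19 to 1.40 for Abcb1a, and -0.97 to 0.22 for Scd2. The receptors' median ran from -0.94 to 0.073, positive without vehicle replicate 1. The outer Vdr values come from fits that leave a treatment at 0 counts and measure no size. In these fits 1 treatment has 1 library, which is assumed to vary like the others.

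The correlation across genes between deviations of libraries with one replicate number was 0.020. With 2 libraries per treatment this value cannot tell whether libraries with one number shared an origin. With the replicate block 0 genes were called, and the log2 fold change of S1pr2 was -1.67. The median-of-ratios and total-count scalings left S1pr2 as the 1 tested receptor without overlap between treatments. The depth of the 3 shallower libraries limits what can be said of Nr1h4, Nr1i3, Nr1h3, and Nr1i2 there.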
